A study of Mus musculus with 56 samples.

Results

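The 6 genes described here break down polyamines or carry them across membranes, and they were chosen by name from 47937 genes listed in each count table. Sat1 and Sat2 encode acetyltransferases, Smox and Paox encode oxidases, and Atp13a2 and Atp13a3 encode P5B-type transport ATPases. All 6 were found in both tables, and 5 of them passed the filter on low counts and were tested; Sat2 did not pass it. RNA was sequenced from CD4+ T cells of mouse spleen and lymph node, described as naive by the study, activated with antibodies to CD3 and CD28 and polarized for 4 days into TH1, TH2, TH17 or Treg cells. One table, called the Odc set below, held 16 WT libraries and 15 libraries labelled Odc KO, with 4 libraries per group except 3 for TH2 Odc KO, of which replicate 1 was not analysed here. The other, the Dohh set, held 12 WT and 12 Dohh KO libraries with 3 per group. Both sets are on a C57BL/6 background. In the KO mice, a Cre recombinase under the CD4 promoter removes floxed exons of Odc, which encodes ornithine decarboxylase, or of Dohh, which encodes deoxyhypusine hydroxylase, from T cells. WT controls carry no Cre and are described as littermates of matched age and sex; no age is given for single samples. The CD4 promoter is active in developing T cells of the thymus; when the enzyme protein was lost cannot be read from these counts. Nothing in the labels says which libraries came from separate animals, so p-values measure the spread between these libraries.

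Polyamines are the small cations putrescine, spermidine and spermine. Ornithine decarboxylase makes putrescine, and deoxyhypusine hydroxylase acts downstream of spermidine, in the last step that turns a lysine of the translation factor eIF5A into hypusine. Cells lower their polyamines by acetylation through spermidine/spermine acetyltransferase, after which the acetylated forms are exported or oxidized in peroxisomes. Spermine can also be oxidized directly to spermidine, a reaction that releases hydrogen peroxide and an aldehyde.

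Total counts ranged from 5905374 to 9145214 per library in the Odc set and from 6572148 to 12576933 in the Dohh set. Every library lay nearer to the other libraries of its own group than to the other genotype of its subset. In 3 KO libraries the distance to their own group was over 0.8 of that to WT. They were TH1 Odc KO replicate 1, TH17 Odc KO replicate 1 and TH1 Dohh KO replicate 3, called nearest to WT below. On the log2 scale their root mean square distances to WT were 0.759, 0.653 and 1.18, and to their own group 0.721, 0.550 and 0.978. The Dohh library was thus far from both, and TH2 Dohh KO replicate 1 was closer to WT (1.09). The 3 were picked after the data were seen, and leaving them out tends to widen KO changes by this choice. Counts over whole genes do not separate the deleted exons, so the targeted genes are a weak check of the labels: Odc1 was at 424 to 680 CPM, the count scaled to library size, in Odc KO and at 357 to 860 in WT, and Dohh was at 45.2 to 148 CPM in Dohh KO and at 31.5 to 45.9 in WT. All 11 T cell markers were found, and their summed level was 2557 to 4997 CPM in Odc KO against 3497 to 5627 in WT, and 2283 to 4670 in Dohh KO against 4795 to 6081 in WT. Markers of other cells are given as sums over the libraries of all 4 subsets, and no list was tested. For each of these lists the highest sum in each set was in a KO library. Single subsets could differ: in TH1 cells of the Dohh set B cell markers were at 12.1 to 37.1 CPM in KO and 49.3 to 65.6 in WT. In TH2 cells of that set they overlapped, at 129 to 175 CPM in KO and 108 to 192 in WT. The 11 myeloid markers summed to 13.6 to 813 CPM in Odc KO against 12.6 to 57.8 in WT, and to 7.56 to 11873 in Dohh KO against 22.1 to 43.5 in WT, where Itgam was at 0 in all libraries of the Dohh set. The 8 basophil or mast cell markers summed to 25.1 to 335 CPM in Odc KO against 5.07 to 48.3 in WT, and to 67.6 to 1236 in Dohh KO against 3.79 to 25.3 in WT. The markers of γδ T cells summed to 96.9 to 538 CPM in Odc KO against 13.5 to 58.0 in WT, and to 566 to 1264 in Dohh KO against 21.6 to 52.6 in WT. The 8 B cell markers summed to 173 to 1590 CPM in Odc KO against 42.0 to 291 in WT, and to 12.1 to 849 in Dohh KO against 49.3 to 294 in WT, with Igkc at 0 throughout the Dohh set. The 7 CD8 T or NK cell markers summed to 16.6 to 304 CPM in Odc KO against 13.9 to 50.2 in WT, and to 32.3 to 391 in Dohh KO against 17.0 to 29.0 in WT, with the highest sums in Treg KO cells of both sets. The 8 erythroid or platelet markers summed to 0.391 to 20.1 CPM in Odc KO against 0 to 1.24 in WT, and to 19.0 to 389 in Dohh KO against 0.0753 to 1.98 in WT. In bulk RNA, fewer cells of a type and less RNA per cell cannot be told apart, and the part of these cells in the values below was not tested. The sexes were not balanced. Libraries said below to hold no Xist had it at 0.848 CPM at most, and those said to hold Xist at 66.4 CPM or more. The Y-linked Ddx3y was at 0.148 CPM at most in libraries said to lack it and at 1.58 CPM or more in the others. In these terms 15 of 15 Odc KO libraries held Ddx3y without Xist, against 4 of 16 WT libraries. In the Dohh set 4 of 12 KO libraries did so against 8 of 12 WT libraries. In the same terms both Xist and Ddx3y were held by 4 Odc WT libraries, replicate 1 of each subset, and by 4 Dohh KO libraries, replicate 2 of each subset. Whether these libraries hold RNA of several animals was not tested. Each set was also fitted with only the libraries that held Ddx3y and no Xist, in the terms above here and wherever this setting is named. This left 1 WT library per subset in the Odc set and 1 KO library, replicate 3, per subset in the Dohh set, so that the lone library is assumed to vary like the other groups; changes of calls under it are given with the genes, and the part of sex in the results was not tested further.

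Gene positions are given on GRCm38. Sat1 lies at chrX:155213132-155216449 on the minus strand, Sat2 at chr11:69622024-69623870, Smox at chr2:131491496-131525922, Paox at chr7:140115799-140137224, Atp13a2 at chr4:140986873-141007330, all on the plus strand, and Atp13a3 at chr16:30312423-30405975 on the minus strand. No exon of the others overlaps another gene, whereas 2.89% of the exon bases of Paox are shared with Echs1 on the opposite strand. The 250 bases before the RefSeq start (GRCm38.p6) were searched on both strands for 4 motifs, because Sat1 and Smox fell together in most comparisons. The motifs were TATGACTAA, the polyamine-responsive element described at human SAT1, TGACNNNGC, the core of the antioxidant response element, CACGTG, the E-box, and TATAAA, the TATA box. Windows were at hand for 5 of the 6 genes, and Atp13a3 was not searched. Of the 5, only Smox held any of the motifs, and the stretch is shown with 10 bases on each side and with the match in capitals, at chr2:131491659-131491687 on the plus strand, 193 to 185 bases before the start. By GENCODE this stretch lies within Smox, in an intron of its longest gene model and in no exon.
Smox: cgcagcgctcTGACAGTGCcggaagacct
TGACNNNGC is held by 10.2% of the 32851 promoter windows, CACGTG by 6.02%, TATAAA by 12.4% and TATGACTAA by 0.0944%. The windows of Sat1, Sat2, Paox and Atp13a2 held none of the 4, which says only that these letters are not in these windows.

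In WT cells Smox had the highest level per length in TH1, TH2 and TH17 cells, and Sat1 had the highest level in Treg cells, in both sets. In WT cells of the Odc set the mean level of Smox was 121 ± 11.5 RPKM, a count scaled by library size and by exon length, in TH1, 72.9 ± 3.18 in TH2, 137 ± 19.9 in TH17 and 36.4 ± 1.17 in Treg cells (SD, n = 4). Sat1 was at 40.6 ± 4.04 RPKM in TH1, 44.4 ± 3.49 in TH2, 47.7 ± 2.50 in TH17 and 71.3 ± 14.9 in Treg cells. The transporters came next, with Atp13a2 between 9.99 and 14.2 RPKM and Atp13a3 between 11.6 and 20.2 RPKM in group means. Paox was lower, at 1.87 to 2.09 RPKM. In the Dohh set the WT group means were 35.7 to 99.4 RPKM for Smox, 34.0 to 63.7 for Sat1, 16.4 to 23.7 for Atp13a2, 6.98 to 10.3 for Atp13a3 and 2.69 to 3.49 for Paox. Sat2 had 0 or 1 count in every Odc set library, and 0 to 2 counts in the WT libraries of the Dohh set. A count of 0 allows up to 3 counts, which is 0.328 to 0.508 CPM in the Odc set and 0.239 to 0.456 CPM in the Dohh set, for counting error only, so Sat2 was not detectable above this floor in WT cells.

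**Figure D1:**
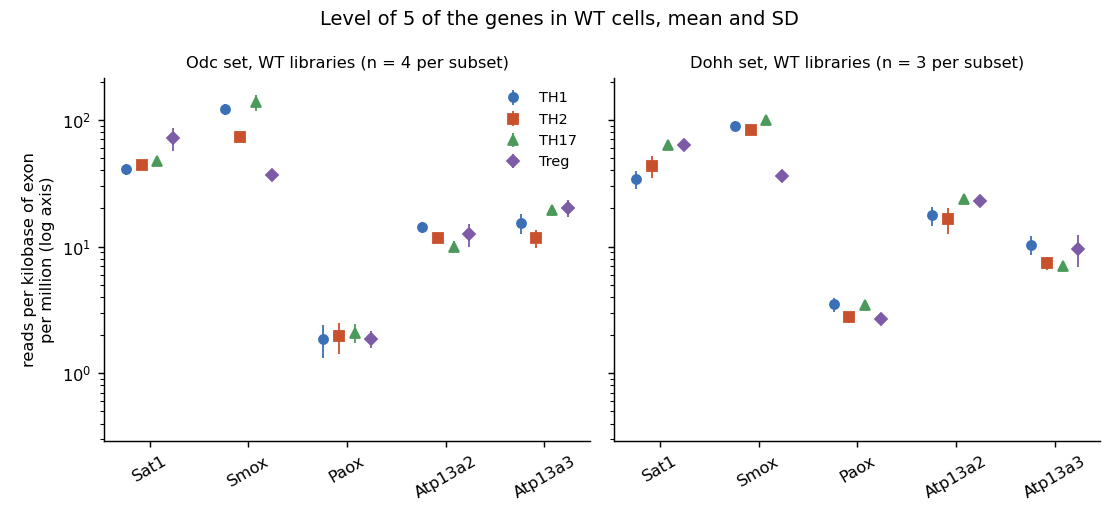
Mean level of 5 of the genes in WT cells in RPKM on a log axis (SD as bars), for each subset, in the Odc set (n = 4) and the Dohh set (n = 3). In both sets the Treg value (purple diamond) is the lowest of the 4 for Smox, and Paox has the lowest level of the 5 genes.

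The levels in WT cells differed among the 4 subsets for 3 of the 5 tested genes in the Odc set, where 71.1% of all genes tested did, and for 2 of 5 in the Dohh set, against 40.1% of all genes (edgeR quasi-likelihood F test, Benjamini-Hochberg adjusted p). These were Sat1 (adjusted p = 2.44e-05 and 0.00243), Smox (0.000721 and 0.00062) and, in the Odc set, Atp13a3 (0.00122). Neither set showed such a difference for Paox (0.846 and 0.282) or, at the same threshold, for Atp13a2 (0.0516 and 0.256). The Odc set value of Atp13a2 lay near the threshold and passed in 5 of 10 other settings: with RLE size factors (0.0455), with the replicate number as a block (0.0194) or as a block within genotype (0.00975), without the libraries numbered 1 (0.0158) and without the KO libraries nearest to WT (0.00309). Between single WT subsets of that set Atp13a2 was 1.42-fold higher in TH1 than in TH17 cells (adjusted p = 0.0152). The Dohh set value of Sat1 did not pass without the libraries numbered 2 (0.105). With only the WT libraries that held Ddx3y and no Xist, 1 per subset, none of the 3 passed in the Odc set (adjusted p = 0.121 for Sat1, 0.55 for Smox and 0.28 for Atp13a3), whereas in the Dohh set Atp13a2 then passed (adjusted p = 0.0013). The order of Sat1 levels, as CPM per library, was TH1, TH2, TH17, Treg in the Odc set. TH1 WT libraries were at 112, 107, 128 and 103 CPM and Treg WT libraries at 218, 197, 236 and 141, so that these groups did not overlap. Sat1 was 1.76-fold higher in Treg than in TH1 cells (adjusted p = 1.87e-05), 1.61-fold higher than in TH2 (0.000148) and 1.49-fold higher than in TH17 cells (0.00144), while TH1, TH2 and TH17 did not differ at the threshold from each other (adjusted p = 0.178 to 0.566). In the Dohh set Sat1 was again 1.87-fold higher in Treg than in TH1 cells (adjusted p = 0.00227), but TH17 stood at the level of Treg: 171, 170 and 184 CPM against 179, 190 and 161 (adjusted p = 0.997).

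Smox ran the other way, with Treg cells lowest in both sets. Its level in Treg WT libraries was 141, 136, 148 and 141 CPM in the Odc set and 136, 143 and 138 CPM in the Dohh set, below every WT library of the other 3 subsets, which lay between 271 and 612 CPM. The fold over Treg was 3.33 for TH1 (adjusted p = 0.000757), 2.01 for TH2 (0.0345) and 3.78 for TH17 (0.000433) in the Odc set, and 2.51, 2.34 and 2.78 in the Dohh set (adjusted p = 0.000633, 0.00119 and 0.000647). The other neighbours in the order, TH2, TH1 and TH17, did not differ at the threshold in either set (adjusted p = 0.055 to 0.867). Atp13a3 was lowest in TH2 WT cells of the Odc set, at 136, 98.4, 102 and 125 CPM, against 204, 178, 172 and 213 in TH17 cells and 195, 191, 173 and 244 in Treg cells, a difference of 1.66-fold (adjusted p = 0.00146) and 1.74-fold (0.000515). In the Dohh set the test found no such difference (adjusted p = 0.818 and 0.252), and there the WT libraries of TH2 cells were at 70.7, 67.0 and 83.7 CPM beside 68.9, 68.8 and 70.5 in TH17 cells.

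KO cells were then compared with WT cells of the same subset and set, which gave 8 comparisons. A gene passed at an adjusted p under 0.05 over all genes tested. In the Odc set 2 of the 5 genes passed in TH1 cells (56.8% of all 13839 genes tested passed), 5 in TH2 (59.2%), 2 in TH17 (47.8%) and 2 in Treg cells (59.8%). In the Dohh set 2 passed in TH1 (50% of 13897 genes), 3 in TH2 (45.3%), 1 in TH17 (52.0%) and 3 in Treg cells (53.4%). The counts alone do not set these genes apart from the background. Groups without overlap were also common: the share of genes with all KO libraries below all WT libraries was 21.5%, 30.5%, 19.6% and 20.6% in TH1, TH2, TH17 and Treg cells of the Odc set and 27.0%, 30.5%, 32.1% and 32.3% in the Dohh set, and with all KO libraries above it was 21.9%, 30.6%, 21.5% and 25.2% in the Odc set and 24%, 31.9%, 29.9% and 34.3% in the Dohh set. The direction was less common: Sat1 and Smox each passed as lower in 7 of 8 comparisons, which 9.05% of the 12924 genes tested in all 8 did. Paox passed as higher in 4 of 8, as did 27.7% of genes in at least 4. The fitted change was below 0 in all 8 for Sat1, Smox and Atp13a2, as for 19.3% of genes, except that Atp13a2 in Dohh KO TH1 cells was above 0 without KO replicate 3, and above 0 in all 8 for Paox, as for 21.9%, where 2 values in the Odc set near 0 turned sign with the scaling. Atp13a2 passed as lower and Atp13a3 as higher in 1 comparison each.

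Sat1, whose product adds the acetyl group that marks polyamines for export or oxidation, fell in all 4 Odc KO subsets. In Treg cells Odc KO libraries were at 75.6, 73.1, 65.6 and 61.8 CPM against 218, 197, 236 and 141 in WT, and every KO library was below every WT library. The difference was 2.87-fold (log2 fold change -1.52, SE 0.14, adjusted p = 2.33e-09). In TH2 cells KO libraries were at 41.1, 58.0 and 45.9 CPM against 122, 126, 134 and 111 in WT, a 2.55-fold difference (log2 fold change -1.35, SE 0.16, adjusted p = 2.25e-07). In TH17 cells the levels were 74.2, 63.0, 59.1 and 60.9 CPM in KO and 140, 134, 133 and 123 in WT, 2.06-fold lower (log2 fold change -1.04, SE 0.14, adjusted p = 3.25e-06). TH1 cells had the smallest difference, 1.69-fold, with 88.6, 57.4, 65.7 and 55.4 CPM in KO and 112, 107, 128 and 103 in WT (log2 fold change -0.75, SE 0.14, adjusted p = 8e-05). In none of the 4 subsets did the groups overlap. KO libraries of all 4 subsets lay between 41.1 and 88.6 CPM; the Treg KO libraries were all above the TH2 KO libraries and within the range of the TH1 and TH17 KO libraries together, and levels among KO subsets were not tested. The effect differed between subsets (interaction of genotype and subset, adjusted p = 0.0144; 34.8% of all genes had such a difference in this set), but the value did not pass without the libraries numbered 1, 2 or 3 (adjusted p = 0.124, 0.126 and 0.0505), nor with only the libraries that held Ddx3y and no Xist (0.306). For Sat1 of the Dohh set the same test gave an adjusted p of 0.0782, which became 0.0107 with only the libraries that held Ddx3y and no Xist and 0.0151 without the KO libraries nearest to WT.

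Sat1 lies on the X chromosome. In the Odc set the WT libraries with Ddx3y and without Xist were at 107, 126, 134 and 197 CPM in TH1, TH2, TH17 and Treg cells. These lay inside the range of the WT libraries that held Xist in each subset, of which replicate 1 also held Ddx3y. Of the Dohh set, the WT library with Xist, replicate 1, was below both WT libraries with Ddx3y in TH1 (82.3 against 88.5 and 112 CPM) and TH2 cells (92.8 against 129 and 138 CPM) and between them in TH17 and Treg cells. With only the libraries that held Ddx3y and no Xist, and so with 1 WT library per subset, the fitted change of Sat1 in Odc KO was -0.70, -1.40, -1.07 and -1.53 (log2) in TH1, TH2, TH17 and Treg cells (adjusted p = 0.0268, 0.000458, 0.00591 and 0.000114).

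In Dohh KO cells the fall of Sat1 was clear in Treg cells, with 59.5, 72.5 and 75.9 CPM in KO against 179, 190 and 161 in WT (2.55-fold, log2 fold change -1.35, SE 0.21, adjusted p = 2.24e-05). These 2 groups were far apart, as in the Odc set. In TH2 cells KO libraries were at 82.3, 85.2 and 77.7 CPM and WT libraries at 92.8, 129 and 138 (log2 fold change -0.55, SE 0.21, adjusted p = 0.0354). In TH1 cells they were at 45.1, 57.6 and 85.7 CPM against 82.3, 88.5 and 112, and here KO replicate 3 lay above WT replicate 1 (log2 fold change -0.59, SE 0.21, adjusted p = 0.0247). The calls in TH1 and TH2 were weak. Without TH1 Dohh KO replicate 3 the log2 fold change in TH1 was -0.87 (adjusted p = 0.00105). This library belongs to those picked as nearest to WT, so no support is drawn from that value. The TH1 call was lost without TH1 KO replicate 1 or 2 or TH1 WT replicate 3. The TH2 call was lost without any one TH2 KO library or without TH2 WT replicate 2 or 3. With only the libraries that held Ddx3y and no Xist, the TH1 call was lost too (log2 fold change -0.25, adjusted p = 0.34). In TH17 cells the groups did not overlap, with 96.8, 159 and 144 CPM in KO and 171, 170 and 184 in WT, but the difference did not pass (log2 fold change -0.40, SE 0.21, 95% interval -0.80 to 0.01, adjusted p = 0.115). The log2 fold change ranged from -0.57 to -0.22 over the other settings run. In the same 3 KO libraries myeloid markers summed to 601, 9150 and 11873 CPM, against 40.9 to 43.5 in WT, so that the KO library lowest in Sat1 was also the lowest in these markers; their part in the Sat1 values was not tested.

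Sat2, a relative of Sat1 known to act on thialysine, had more reads in some Dohh KO libraries than in WT. Its counts were 4, 1 and 11 in TH2, 1, 2 and 4 in TH17, 2, 8 and 3 in Treg and 0, 0 and 0 in TH1 Dohh KO libraries, against 1, 0 and 1 in TH2, 2, 0 and 0 in TH1 and 0 in every TH17 and Treg WT library. All KO libraries were above all WT libraries in TH17 and Treg cells, as were 29.9% and 34.3% of all genes tested. With 11 counts at most, the gene did not pass the filter on low counts, and no call is drawn from it. Fitted without the filter, it passed in TH17 and Treg cells of the Dohh set (adjusted p = 0.0447 and 0.0109) and not in TH2 cells (0.0915). In the fit of only the libraries that held Ddx3y and no Xist it passed the filter through the lone KO libraries, which held 11, 4 and 3 counts in TH2, TH17 and Treg cells. A test there would reuse the counts that let the gene in, so none is given. No fitted fold change is given, since WT libraries were at 0 to 1 count in these subsets.

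**Figure D2:**
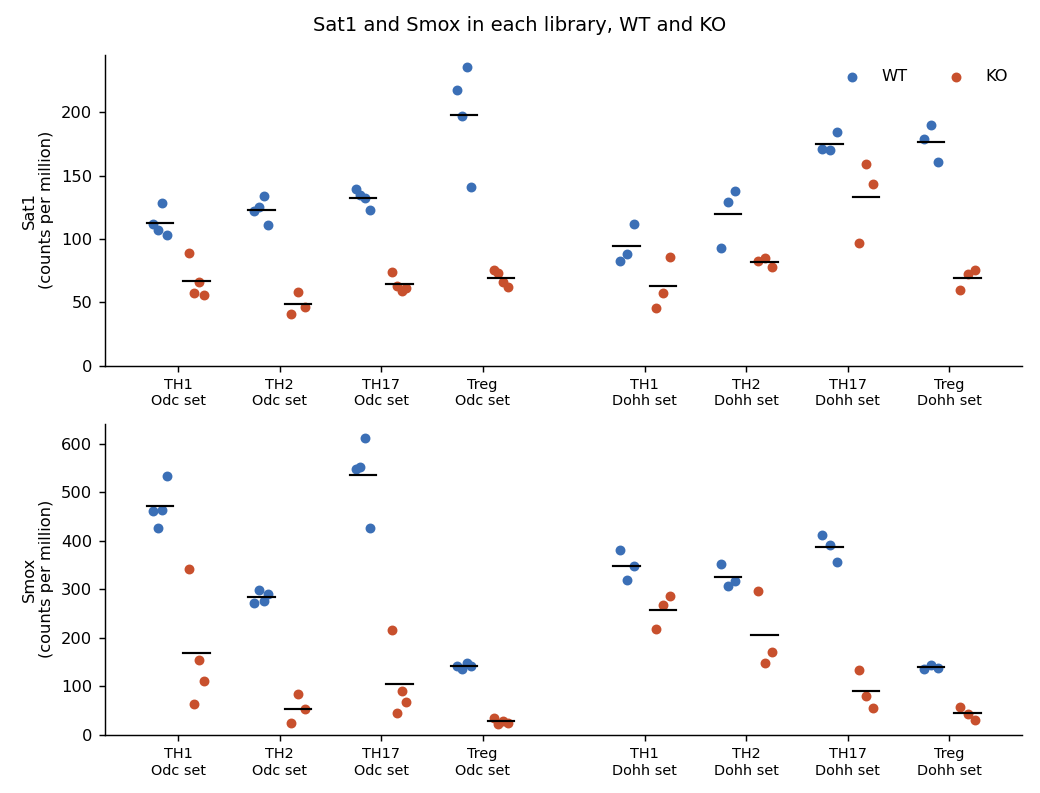
Sat1 (top) and Smox (bottom) in CPM for each library, WT in blue and KO in red, with the group mean as a black line, by subset in the Odc set and the Dohh set. Smox KO libraries lie below the WT libraries in all 8 pairs, and Sat1 KO libraries do so in 7 of 8.

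Smox, which oxidizes spermine to spermidine, had the largest differences of the 5 tested genes in all 4 subsets of the Odc set and in TH17 and Treg cells of the Dohh set; in TH1 and TH2 cells of the Dohh set Paox differed more. No KO library reached the lowest WT library of its subset in any of the 8 comparisons. In Odc KO TH2 cells Smox was at 23.6, 83.5 and 53.4 CPM against 271, 298, 276 and 291 in WT, 5.31-fold lower (log2 fold change -2.41, SE 0.46, adjusted p = 0.0001). In Treg cells the levels were 34.5, 23.1, 29.3 and 23.3 CPM in KO and 141, 136, 148 and 141 in WT, 5.14-fold lower (log2 fold change -2.36, SE 0.42, adjusted p = 3.74e-05). In TH17 cells they were 217, 45.8, 89.2 and 66.9 CPM in KO and 549, 553, 612 and 427 in WT, 5.11-fold lower (log2 fold change -2.35, SE 0.41, adjusted p = 7.23e-05). In TH1 cells they were 342, 63.7, 153 and 111 CPM in KO and 461, 427, 463 and 534 in WT, 2.81-fold lower (log2 fold change -1.49, SE 0.40, adjusted p = 0.00248). The high KO library in TH1 and in TH17 cells was replicate 1, which came close to WT over all genes. Without both of these libraries the log2 fold change was -2.13 in TH1 (adjusted p = 1.28e-06) and -3.01 in TH17 cells (adjusted p = 4.4e-08). They were left out for their nearness to WT, which by itself widens the change, so no support is drawn from these values. With only libraries that held Ddx3y and no Xist, which left 1 WT library per subset, Smox passed in TH2, TH17 and Treg cells but not in TH1 cells (log2 fold change -1.37, adjusted p = 0.219); the call in TH1 was also lost without the libraries numbered 4 (log2 fold change -1.30, adjusted p = 0.0523). The effect on Smox did not differ between subsets of the Odc set by the test of interaction (adjusted p = 0.424).

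Smox in Dohh KO cells differed by subset. In TH17 cells KO libraries were at 133, 80.8 and 54.4 CPM against 413, 391 and 357 in WT, 4.33-fold lower (log2 fold change -2.11, SE 0.27, adjusted p = 3.16e-06). In Treg cells they were at 57.4, 43.3 and 30.8 CPM against 136, 143 and 138, 3.17-fold lower (log2 fold change -1.66, SE 0.27, adjusted p = 3.44e-05). The other 2 subsets moved less. TH2 KO libraries were at 296, 149 and 171 CPM against 352, 306 and 317 (log2 fold change -0.66, SE 0.26, adjusted p = 0.0439). This call was lost when either TH2 KO replicate 2 or 3 or any TH2 WT library was left out, and without the filter on low counts (adjusted p = 0.0518). Over the other settings run the log2 fold change in TH2 cells ranged from -1.06 to -0.48. TH1 KO libraries were at 217, 268 and 285 CPM against 381, 319 and 348, without overlap, and the difference did not pass (log2 fold change -0.44, SE 0.26, 95% interval -0.96 to 0.07, adjusted p = 0.166). The test of interaction found that the effect depended on the subset (adjusted p = 0.00583, against 17.9% of all genes with such a difference in this set), though not without the libraries numbered 2 or 3 (adjusted p = 0.207 and 0.0521).

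In TH2 cells of the Odc set the myeloid markers summed to 13.6 to 32.1 CPM in KO and 16.3 to 21.5 in WT, while the T cell markers summed to 2557 to 3004 CPM in KO and 4134 to 4707 in WT. In this comparison Smox was 5.31-fold and Sat1 2.55-fold lower. B cell markers summed to 907 to 1381 CPM in KO and 103 to 291 in WT of the same comparison, basophil or mast cell markers to 41.9 to 85.2 CPM against 5.07 to 10.1, and γδ T cell markers to 96.9 to 108 CPM against 13.5 to 27.0, and the part of these lists was not tested.

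Paox, the oxidase that takes acetylated polyamines in peroxisomes, was alone among the 5 tested genes in passing as higher in more than 1 comparison of the main fits. In Dohh KO Treg cells it was at 28.3, 24.1 and 26.4 CPM against 13, 14.3 and 12.3 in WT (1.99-fold higher, log2 fold change 0.99, SE 0.21, adjusted p = 0.000484). In TH2 cells it was at 25.6, 25.6 and 29.9 CPM against 14.8, 13.9 and 12.2 (1.98-fold, log2 fold change 0.99, SE 0.21, adjusted p = 0.000735), and in TH1 cells at 33.5, 48.1 and 21.3 CPM against 17.6, 18.9 and 14.8 (2.00-fold, log2 fold change 1.0, SE 0.21, adjusted p = 0.000501). The groups did not overlap in any of the 3. TH17 cells had 21.7, 19.2 and 24.5 CPM in KO and 17.4, 15.2 and 18 in WT, also without overlap, and the difference did not pass (log2 fold change 0.36, SE 0.21, 95% interval -0.04 to 0.77, adjusted p = 0.146). In the main fits of the 8 comparisons of KO with WT, no Paox difference passed both the test and a fold above 2. With only the libraries that held Ddx3y and no Xist, the log2 fold change in TH1 cells fell to 0.31. The KO library left there was replicate 3, which lay far from its own group.

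In Odc KO cells Paox passed in TH2 alone, at 15.2, 14.3 and 13.8 CPM against 6.49, 8.94, 10.2 and 12.7 in WT (1.51-fold, log2 fold change 0.60, SE 0.22, adjusted p = 0.0196), and the call was lost when TH2 Odc KO replicate 2, TH2 WT replicate 1 or TH2 WT replicate 2 was left out. TH1 libraries were at 11.2, 12, 14.8 and 13 CPM in KO and 7.37, 8.96, 7.40 and 13 in WT (log2 fold change 0.47, SE 0.21, adjusted p = 0.0514). The TH1 value passed without KO replicate 1 (0.51, adjusted p = 0.0456), without WT replicate 4 (0.69, 0.00696) and without all libraries numbered 4 (0.64, 0.0151). It also passed with the replicate number as a block (0.48, adjusted p = 0.0312). In TH17 and Treg cells the levels ranged from 7.35 to 14.6 CPM in KO and from 7.30 to 12 in WT, with overlap (log2 fold change 0.02 and 0.03). Paox had 51 to 328 counts per library over both sets, the lowest of the 5 genes tested. Beside the higher Paox of Dohh KO cells, myeloid markers summed to 374 to 5033 CPM in Treg, 30.5 to 859 in TH2 and 7.56 to 256 in TH1 KO libraries, against 29.5 to 34.4, 22.1 to 31.6 and 24.1 to 24.9 CPM in WT. The sums were highest in TH17 KO libraries, at 601 to 11873 CPM against 40.9 to 43.5 in WT, where the change of Paox was the smallest of the 4 and did not pass (log2 fold change 0.36, adjusted p = 0.146), and TH1 KO replicate 1, at 7.56 CPM, was below WT. Their part in the Paox values was not tested.

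Atp13a2, which exports polyamines from lysosomes into the cytosol, passed in Odc KO TH2 cells, at 42.9, 51.1 and 44.7 CPM against 66.4, 75.9, 69.5 and 68.7 in WT (1.52-fold lower, log2 fold change -0.60, SE 0.18, adjusted p = 0.00632). The groups did not overlap there, and the call was lost without the libraries numbered 2. In the other 7 comparisons they did, and the log2 fold changes were -0.13 to -0.41. In Odc KO TH1 cells replicate 1, at 111 CPM, stood above the other KO libraries at 53.7, 61.6 and 50.8 CPM and above the WT libraries at 86.1, 73.7, 89.8 and 91.0. Without this library, which belongs to those picked as nearest to WT, the log2 fold change was -0.64 (adjusted p = 0.000113) instead of -0.30 (0.122). With all libraries and the replicate number as a block it was -0.33 (adjusted p = 0.0498). In Dohh KO TH1 cells replicate 3, at 42.2 CPM, was below the other KO libraries at 101 and 134 and below WT at 115, 117 and 84.8, and without it the log2 fold change turned from -0.20 to 0.16 (adjusted p = 0.573 and 0.537). With only the libraries that held Ddx3y and no Xist, where that library is the lone KO library, it was -1.28 and passed (adjusted p = 4.58e-05). In that setting Atp13a2 also passed as lower in TH2 (-0.50, adjusted p = 0.0471), TH17 (-0.63, 0.0115) and Treg cells (-0.67, 0.00741) of the Dohh set, again with replicate 3 as the lone KO library. Averaged over the 4 subsets, Atp13a2 was 1.26-fold lower in Odc KO (log2 fold change -0.33, SE 0.09, adjusted p = 0.000939) and 1.25-fold lower in Dohh KO (-0.32, SE 0.14, adjusted p = 0.0398). The Dohh value did not pass in 10 of the 24 fits that each left out 1 library (adjusted p = 0.0501 to 0.0822), nor without the libraries numbered 1 or 3. With only the libraries that held Ddx3y and no Xist the averages were -0.26 in Odc KO, which did not pass (adjusted p = 0.144), and -0.77 in Dohh KO (3.3e-07).

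Atp13a3, which takes up polyamines, passed as higher in Odc KO TH2 cells, at 203, 134 and 183 CPM against 136, 98.4, 102 and 125 in WT (1.5-fold, log2 fold change 0.59, SE 0.19, adjusted p = 0.0106). KO replicate 3 lay just below WT replicate 1, and the call was lost without KO replicate 2 or without the libraries numbered 2 or 4. In the other 7 comparisons the log2 fold changes were -0.04 to 0.40, none passing; the one in TH2 cells of the Dohh set passed when only the 2 groups compared were fitted (0.39, adjusted p = 0.0328). In TH2 cells of the Dohh set the 95% interval ran from -0.04 to 0.84, with 89.6, 89.1 and 113 CPM in KO and 70.7, 67.0 and 83.7 in WT and no overlap. The 2 transporters passed in opposite directions in the same comparison, TH2 cells of the Odc set. With only the libraries that held Ddx3y and no Xist, which left 1 WT library, none of the TH2 calls of Paox, Atp13a2 and Atp13a3 in the Odc set held (log2 fold change 0.66, -0.74 and 0.78, adjusted p = 0.103, 0.0667 and 0.0805). In the Dohh set, with 1 KO library, Atp13a3 then passed as higher in TH2 (0.56, adjusted p = 0.0356) and Treg cells (0.55, 0.0343) and in the average (0.28, 0.0294).

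**Figure D3:**
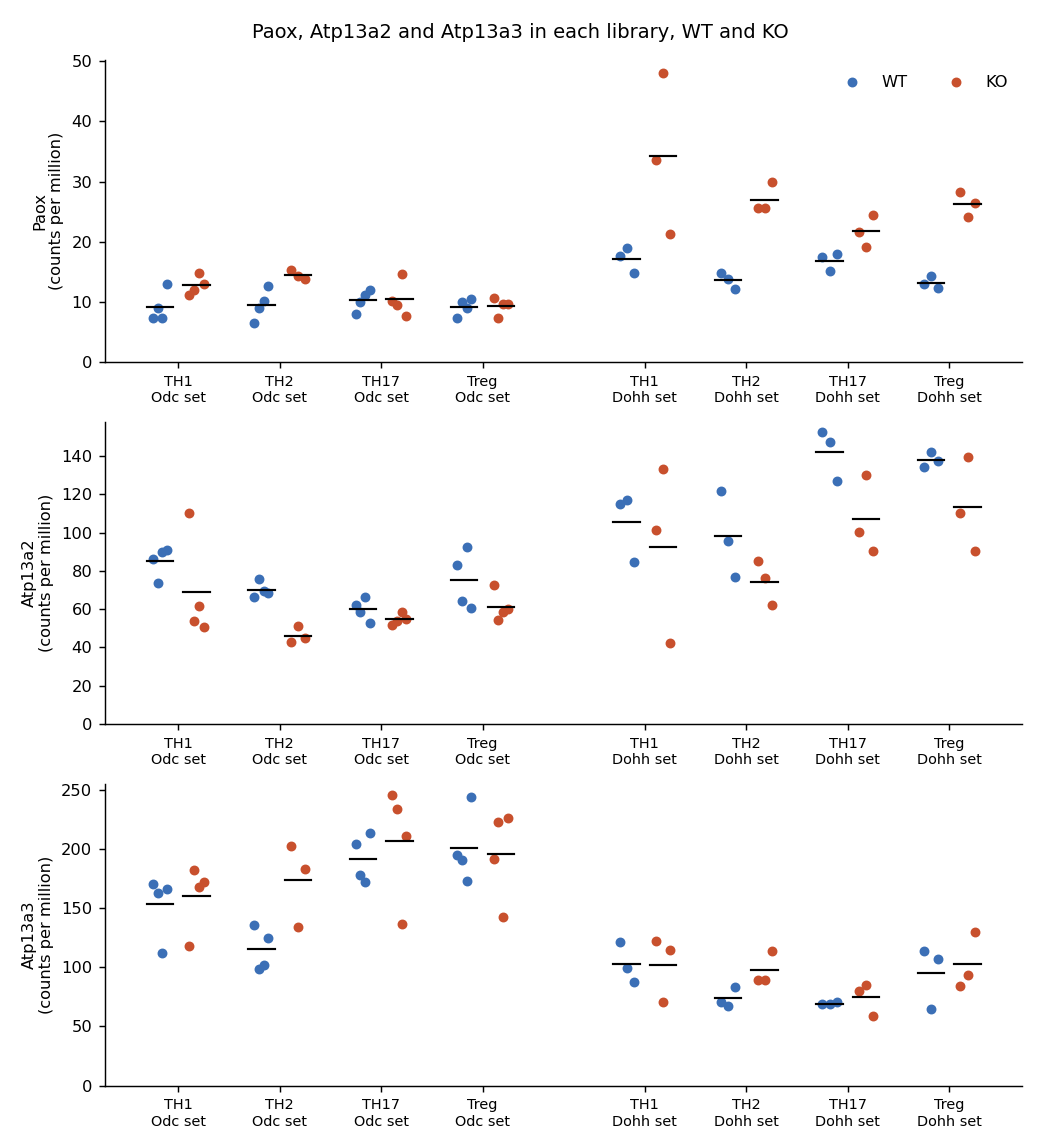
Paox, Atp13a2 and Atp13a3 (top to bottom) in CPM for each library, WT in blue and KO in red, with the group mean as a black line. Paox in the Dohh set is higher in KO than in WT in each subset without overlap, whereas the transporter libraries of both genotypes overlap in most pairs.

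Averaged over the 4 subsets, 4 of the 5 genes passed in each set, where 76.3% of all genes passed in the Odc set and 73.0% in the Dohh set. Smox was 4.45-fold lower in Odc KO (log2 fold change -2.15, SE 0.21, adjusted p = 1.21e-09) and 2.33-fold lower in Dohh KO (-1.22, SE 0.13, adjusted p = 4.02e-08). Sat1 was 2.24-fold lower in Odc KO (-1.17, SE 0.07, adjusted p = 3.36e-13) and 1.65-fold lower in Dohh KO (-0.72, SE 0.10, adjusted p = 2.43e-06). Paox was 1.21-fold higher in Odc KO (0.28, SE 0.10, adjusted p = 0.0167) and 1.78-fold higher in Dohh KO (0.83, SE 0.10, adjusted p = 2.98e-07). The Odc value of Paox did not pass without the libraries numbered 1 (0.15, adjusted p = 0.203), 2 (0.31, 0.0541) or 3 (0.19, 0.189), without the filter (0.24, 0.06) or with only the libraries that held Ddx3y and no Xist (0.28, 0.117). Atp13a3 did not pass (log2 fold change 0.18 and 0.15, adjusted p = 0.0733 and 0.227). In the Odc set it passed with the replicate number as a block (0.18, adjusted p = 0.0213) and without the libraries numbered 3 (0.19, 0.0273). It also passed without any one of TH1 KO replicate 1, TH2, TH17 or Treg KO replicate 3 or Treg WT replicate 4 (0.0197 to 0.0445). Libraries of 1 genotype with the same number may come from the same animals, so the averages were also compared between replicate numbers by a two-sided exact permutation test. In the Odc set this exact test gave p = 0.0286 for Sat1 and for Smox, the smallest it allows, and 0.114 for Paox, 0.0857 for Atp13a2 and 0.371 for Atp13a3. In the Dohh set no exact p under 0.1 is possible, and Sat1, Smox and Paox were at 0.1, Atp13a2 at 0.2 and Atp13a3 at 0.4.

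**Figure D4:**
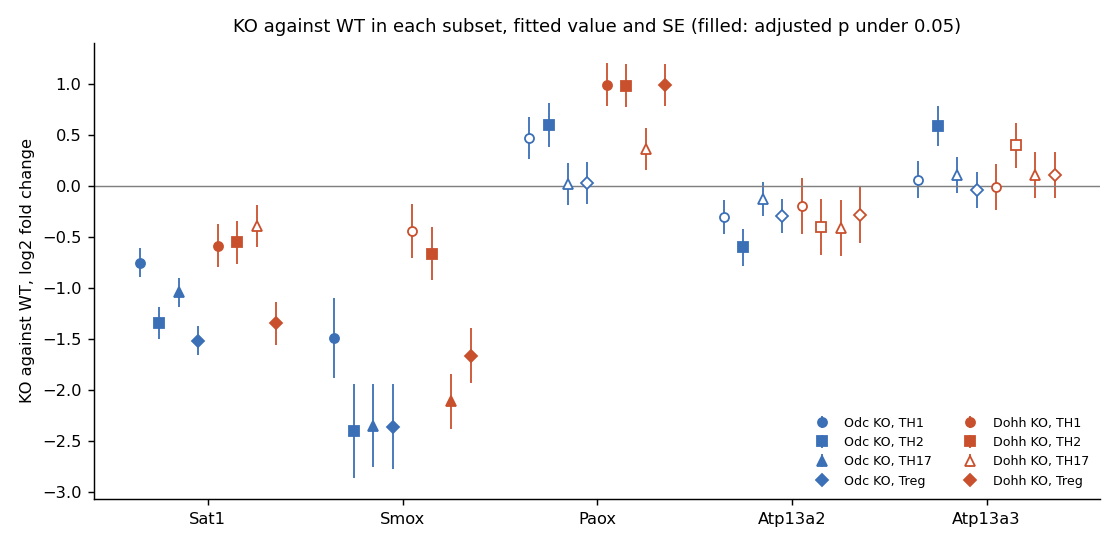
Fitted log2 fold change of KO against WT with its SE for the 5 genes tested, Odc KO in blue and Dohh KO in red, with a marker shape per subset, filled where the adjusted p is under 0.05. All 16 values of Sat1 and Smox are below 0 and all 8 of Paox are above 0.

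The effects of both deletions were compared in a fit of both sets, as the difference of the KO minus WT changes averaged over the subsets, with libraries of the same number in different subsets taken as independent. This difference passed for 3 of the 5 genes, as it did for 44.3% of the 14850 genes tested. Odc minus Dohh, it was -0.95 for Smox (log2, SE 0.27, adjusted p = 0.00325) and -0.47 for Sat1 (SE 0.13, adjusted p = 0.00212), both lower in either KO, and -0.58 for Paox (SE 0.15, adjusted p = 0.00122), which was higher in both KO and less so in Odc KO. For Atp13a2 and Atp13a3 it was -0.04 and 0.00 (95% intervals -0.35 to 0.28 and -0.28 to 0.29). By subset, it passed for Smox and Sat1 in TH2 cells (-1.72 and -0.78, adjusted p = 0.0274 and 0.0337; 15.7% of all genes), for Sat1 in TH17 cells (-0.70, 0.0372; 21.4%), for Paox in Treg cells (-1.0, 0.00807; 26.2%) and for none of the 5 in TH1 cells (18.5%). In TH1 cells it passed for Smox without the libraries numbered 1 (-1.87, adjusted p = 0.00587) and with the replicate number as a block. For Paox it passed there without the libraries numbered 3 (-0.88, 0.047). Each of the 4 calls above was lost when the libraries of 1 number were left out: Sat1 in TH2 cells without 1, 2 or 4 (adjusted p up to 0.301), Smox in TH2 cells without 2 or 4 (up to 0.16), Sat1 in TH17 cells without 2, 3 or 4 (up to 0.375) and Paox in Treg cells without 2 (0.0722). The average for Sat1 was lost without number 2 (-0.40, adjusted p = 0.0824), and those for Smox and Paox passed in each such fit. The sets had separate WT libraries and may have been counted differently: 275 genes with at least 500 counts over the Odc set had at most 5 over the Dohh set. None of the 5 genes tested was among them. Set and deletion cannot be told apart in levels, and the difference of changes is free of this only where it touched KO and WT alike. The balance of sexes and of markers of other cells between KO and WT was not alike in the sets, and its part was not tested.

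The correlation across libraries of Sat1 and Smox is given for each set as a description, and the difference between the sets was not tested. The correlation of their log2 CPM was 0.63 over 31 libraries of the Odc set and 0.17 over 24 of the Dohh set, and after removal of group means 0.61 and -0.30; the libraries share subsets, genotypes and depth, so no test is given. In the Odc set, TH1 KO replicate 1 (88.6 CPM of Sat1 and 342 of Smox) and TH17 KO replicate 1 (74.2 and 217 CPM), the KO libraries of their groups nearest to WT over all genes, were the highest of their groups in both genes. The genes most like Sat1 over the libraries of both sets, by the smaller of the correlations in the 2 sets among 8867 genes, were Calcoco1 (r = 0.90 in the Odc set and 0.91 in the Dohh set), Mxd4 (0.89 and 0.89) and Inpp5k (0.91 and 0.88). Those most like Smox were Fosl2 (0.88 and 0.89), Spred3 (0.93 and 0.87) and Trpm4 (0.91 and 0.87). For Paox they were Rnpep (0.79 and 0.91), Bak1 (0.78 and 0.83) and Mtg1 (0.78 and 0.81), for Atp13a2 Zfp775, Fbxl8 and Ap5s1 (smaller r of 0.69 to 0.78), and for Atp13a3 Papola, Tgs1 and Cltc (0.78 to 0.82). After removal of group means the smaller correlation was 0.548, 0.316 and 0.165 for the 3 genes of Sat1, 0.472, 0.530 and 0.579 for those of Smox, 0.682, 0.639 and 0.475 for those of Paox, 0.303 to 0.584 for those of Atp13a2 and 0.717 to 0.823 for those of Atp13a3, in the order named, and their ranks among the 8867 genes were then between 19 and 1319.

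The other genes of polyamine metabolism were described from lists, and in each comparison 23.8% to 32.9% of all genes tested passed as higher and 21.5% to 29.3% as lower. Over the 8 comparisons, 9.05% of 12924 genes passed as lower in at least 7 and 27.7% as higher in at least 4. The share higher in at least 7 was not computed. Genes named here and below were picked for many calls and large changes, so their counts do not set the lists apart. Of 9 tested genes of polyamine synthesis and antizyme, 2 to 5 passed as higher and 1 or 2 as lower in a comparison, with a median log2 fold change of 0.24 to 0.83. Srm, the spermidine synthase, passed as higher in 8 of 8 comparisons, with a log2 fold change of 1.08 to 2.78. Oaz2, an antizyme that restrains ornithine decarboxylase and polyamine uptake, passed as lower in 8 of 8, at -1.66 to -0.71. Amd2, a near copy of the S-adenosylmethionine decarboxylase gene Amd1, passed as higher in 4 of 8, and reads of the 2 copies may not be separable.

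Of 4 other tested genes that handle polyamine breakdown, Aldh9a1, an aldehyde dehydrogenase that acts on aminoaldehydes, passed as higher in 6 of 8 comparisons (log2 fold change 0.22 to 1.25), and 0 to 3 passed as higher and 0 or 1 as lower in each. Atp13a1, the only other tested ATPase of this family and one that does not belong to the P5B group, passed as higher in the 4 comparisons of the Odc set (log2 fold change 0.47 to 0.77) and in no single subset of the Dohh set (-0.08 to 0.38), where it passed in the average of subsets (0.20); the difference between the sets was not tested. Of 7 or 8 tested candidate carriers and uptake factors, 3 to 5 passed as higher and 1 or 2 as lower. Gpc1, a heparan sulfate proteoglycan linked to polyamine uptake, passed as higher in 7 of 8 (0.26 to 2.17), Cav1, the caveolae protein, in 5 of 8 (-0.23 to 7.24), and Slc12a8 passed as lower in 8 of 8 (-3.17 to -1.42). The 4 genes of hypusine formation passed as higher in 2 to 4 of 4, with Dhps, Dohh and Eif5a each higher in 7 of 8 comparisons. Counts of Dohh in Dohh KO may include transcripts that lack the deleted exons.

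Of 8 genes that salvage methylthioadenosine and supply S-adenosylmethionine, 3 to 6 passed as higher and 0 or 1 as lower; Mtap and Enoph1 passed as higher in 8 of 8 (log2 fold change 0.62 to 1.76 and 0.85 to 1.31) and Mat2a in 7 of 8 (0.48 to 1.75). Of 12 genes that remove hydrogen peroxide and aldehydes, products of polyamine oxidation, 4 to 6 passed as higher and 0 to 3 as lower, with Prdx1 and Txn1 higher in 8 of 8 (0.89 to 2.30 and 0.68 to 1.95) and Gpx1 in 7 of 8 (0.61 to 1.57). NRF2 targets, which respond to oxidative stress, passed as higher in 3 to 8 of 8 genes and as lower in 0 or 1, with a median log2 fold change of 0.58 to 3.13. Slc7a11, the cystine carrier, was the largest of these, at 1.31 to 6.98 and higher in 8 of 8 comparisons, with Nqo1 and Srxn1 in 7 of 8 (0.77 to 4.09 and 0.49 to 3.66). Of 17 lysosome genes, 1 to 7 passed as higher and 2 to 8 as lower, with medians of -0.19 to 0.20. Ctsd passed as higher in 7 of 8 (0.01 to 2.48) and Hexa in 4 of 8 (0.05 to 1.99), and Npc2 as lower in 6 of 8 (-1.45 to -0.04). Of 10 p53 targets, 0 to 8 passed as higher and 2 to 5 as lower; Trp53inp1 and Sesn1 passed as lower in 8 of 8 (-3.02 to -0.91 and -1.93 to -0.49), and Bax passed as higher in 7 of 8 (0.22 to 1.44). Myeloid cells carry high levels of several lysosome genes, and the part of the myeloid markers given above in these counts was not tested.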

How the data were processed

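The authors sequenced stranded poly(A) mRNA libraries, aligned reads to mm10 with STAR and deposited raw read counts per gene from featureCounts in 2 tables; tool versions, annotation release and strand setting are not given in the sources used here. Of 56 samples, 55 had a column and were used. All columns were used.

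CPM and RPKM were computed here from the deposited counts, with TMM library sizes and GENCODE exon lengths (GRCm38). Genes passing filterByExpr were fitted per table with edgeR 4.0.16 (R 4.3.3), robust quasi-likelihood over 8 groups, with Benjamini-Hochberg adjustment over all genes tested; a fit of both tables gave the difference between deletions. The adjusted p-values in the text are from these fits unless an exact test is named. Alternatives included DESeq2 1.42.0. On simulated data for TH1 cells, 81 of 100 2-fold and 100 of 100 4-fold changes were recovered among 13166 genes of the Odc set, and 55 and 99 among 13274 genes of the Dohh set. False calls numbered 15 and 7. The simulation gave all genes the same fixed spread and changed only well-counted genes. It held no deviations shared by libraries of the same number, so it does not give the recovery in these data. Among 69 replicate pairs none agreed within sampling noise (chi-square per degree of freedom 2.61 to 152).

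WT libraries with the same number deviated together in 24 of 24 pairs of subsets of the Odc set (correlation 0.206 to 0.576), KO libraries in 20 of 21, and WT and KO libraries of the Dohh set in 15 and 13 of 18 (correlation over 0.1). The labels do not explain this. Within each genotype and set, libraries of the same number also shared the same class of Xist and Ddx3y reads in all subsets. The fits take these libraries as independent, so p-values of averages over subsets can be too small. KO and WT libraries of the same subset and number deviated together in 7 of 15 pairs of the Odc set and 1 of 12 of the Dohh set, and were not treated as paired. Named list genes were up to 3 per list, passing one way in at least 4 of 8 comparisons, by the largest mean change; for likeness, the 3 genes with the largest smaller correlation. The members and lists were chosen with earlier results of these data known. Floors cover counting error only; 95% intervals of log2 fold changes are the estimate ± 1.96 SE of the fit and cover the spread between libraries.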

Additional observations from a re-analysis of the deposited data

Results flagged for a closer look

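In TH1 WT cells of the Odc set, Atp13a3 was at 112 CPM in replicate 3 against 163 to 170 CPM in the other 3 libraries, a gap wide for 4 values; this was 1 of 35 groups examined, and chance gives about 1 in 20. Without this library the change of Atp13a3 in Odc KO TH1 cells turned from 0.06 to -0.07 (log2), with neither passing.

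The effect of the Odc deletion on Sat1 differed between subsets (adjusted p = 0.0144), from -0.75 in TH1 to -1.52 in Treg cells on the log2 scale. The effect of the Dohh deletion on Smox also differed between subsets (adjusted p = 0.00583), from -0.44 in TH1 to -2.11 in TH17 cells. The Sat1 value did not pass without the libraries numbered 1, 2 or 3, and the Smox value did not without those numbered 2 or 3. The KO minus WT changes also differed between the sets, given as Odc minus Dohh on the log2 scale. In single subsets this held for Sat1 in TH17 (-0.70) and TH2 cells (-0.78), Smox in TH2 cells (-1.72) and Paox in Treg cells (-1.0). In the average over subsets it held for Sat1 (-0.47), Smox (-0.95) and Paox (-0.58). The balance of sexes and of other cell markers between KO and WT was unlike in the sets, so deletion and set cannot be told apart. Each of the 4 values for single subsets, and the average for Sat1, did not pass when the libraries of 1 replicate number were left out (number 2 in each case, and others for Sat1 and Smox). All p-values are from edgeR's quasi-likelihood test, and the causes were not tested.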

How the results depend on the processing

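The numbers of the 6 genes that passed are given for settings that moved them by over 1.5 times and for libraries left out; the causes of the changes were not tested unless fewer libraries are named. For Odc KO against WT in TH1 cells 2 passed, 4 with the replicate block (Paox at adjusted p = 0.0312 and Atp13a2 at 0.0498 then passed too), 1 with a test against a fold of 1.5, 4 without the KO libraries nearest to WT, 1 with only the libraries that held Ddx3y and no Xist, and 2 to 4 when single libraries or numbers were left out. In TH2 cells 5 passed, 2 against a fold of 1.5, 2 with the Ddx3y libraries and 2 to 5 with libraries left out. In TH17 cells 2 passed in every setting run, and in Treg cells 2 to 3, with Atp13a2 added without the libraries numbered 1 (-0.34, adjusted p = 0.0441) and without the KO libraries nearest to WT (-0.30, 0.026). In the average of subsets 4 passed, 2 against a fold of 1.5, 2 with the Ddx3y libraries, 2 by the exact permutation test and 3 to 5 with libraries left out. For Dohh KO in TH1 cells 2 passed, 1 against a fold of 1.5, 1 with only the 2 groups fitted, 1 with the Ddx3y libraries and 1 to 2 with libraries left out. In TH2 cells 3 passed, 1 against a fold of 1.5, and 1 to 3 with libraries left out. With the Ddx3y libraries Sat2 entered through the lone KO library, so no count is given. In TH17 cells 1 passed, and 2 without the filter, when Sat2 entered. With the Ddx3y libraries Sat2 entered through the lone KO library, and no count is given there either. In Treg cells 3 passed and 5 with the Ddx3y libraries. In the average 4 passed, 2 against a fold of 1.5, and 0 by the exact permutation test, which cannot go below 0.1. The interaction passed for 1 gene in the Odc set, 3 with the replicate block within genotype, 2 without the KO libraries nearest to WT, 0 with the Ddx3y libraries and 0 to 1 with numbers left out; in the Dohh set for 1, 2 with the replicate block and 2 with the block within genotype, 3 without the nearest library, 2 with the Ddx3y libraries and 0 to 1 with numbers left out. With the replicate block the Odc average of Atp13a3 (adjusted p = 0.0213), the Dohh interaction of Sat1 (0.0281) and the difference of deletions for Smox in TH1 cells (0.0332) also passed. The averaged difference of deletions passed for 3 genes and for 2 to 3 with numbers left out. Levels in WT subsets differed for 3 genes in the Odc set, 0 with the Ddx3y libraries, 3 to 4 with numbers left out, and for 2 in the Dohh set, 1 to 2 with numbers left out. Leaving out the nearest libraries and keeping only the Ddx3y libraries were chosen after seeing the data. The former tends to widen KO changes by its choice of libraries, so calls gained under it are not support.

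Signs turned only for values that did not pass, all log2. For Paox in Odc KO TH17 cells these were -0.0095 with RLE size factors, -0.013 with DESeq2, -0.0068 without the filter, -0.0020 with only the 2 groups and -0.17 to 0.19 with libraries left out. In Treg cells they were -0.035 with RLE and with DESeq2, -0.041 without the filter, -0.020 with 2 groups, -0.11 with the Ddx3y libraries and -0.15 to 0.17 with libraries left out. For Atp13a3 they were -0.048 in Odc KO TH1 and 0.016 in Treg cells with the Ddx3y libraries (libraries left out: -0.092 to 0.22 and -0.13 to 0.088), 0.020 with RLE and with DESeq2, 0.0038 with 2 groups and 0.27 with the Ddx3y libraries in Dohh KO TH1 cells, -0.27 with the Ddx3y libraries in TH17 cells, and -0.017 with RLE and -0.020 with a mean count of 50 in the averaged difference of deletions. Atp13a2 in Dohh KO TH1 cells was at 0.16 without the nearest library. With libraries left out, values in Dohh KO ranged for Atp13a3 from -0.16 to 0.20 in TH1, -0.0054 to 0.33 in TH17 and -0.16 to 0.38 in Treg cells, and for Atp13a2 from -0.55 to 0.16 in TH1 cells. The difference of deletions ranged in TH1 cells from -0.16 to 0.23 for Atp13a3, -0.46 to 0.036 for Sat1 and -0.44 to 0.21 for Atp13a2, in Treg cells from -0.31 to 0.038 for Sat1 and -0.12 to 0.081 for Atp13a2, and in the average from -0.069 to 0.074 for Atp13a3 and -0.16 to 0.16 for Atp13a2. Of the single values of genes, 52 turned sign, 87 no longer passed, 44 newly passed and 1397 did neither.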
